A study of Mus musculus with 8 samples.

Results

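The 10 genes examined here are Nfe2l2, which encodes the transcription factor NRF2, and 9 genes for antioxidant enzymes, of which Nqo1, Hmox1, Gclc, Gclm and Txnrd1 are classical NRF2 targets and Sod1, Sod2, Sod3 and Cat encode the superoxide dismutases and catalase. They were chosen by their symbols from the 22880 genes in the count files, each symbol matched 1 Ensembl identifier, and all 10 passed the filter on low counts that kept 14001 genes. RNA came from the whole soleus, a postural calf muscle rich in slow fibres, taken from 4 male control mice (Dnm2 +/+) and 4 male Dnm2 +/K562E mice, here called Dnm2 wt/K562E, all 2 months old and on the C57BL/6 background. The mutant mice carry 1 allele of dynamin 2, a GTPase of membrane fission, with the K562E change in every cell, together with a loxP site left in an intron by the targeting. Controls were age-matched or littermate wild-type animals. The comparison asks how the mutation alters transcription in a muscle that becomes myopathic. As whole muscle was sequenced, fewer cells of a type and less RNA per cell cannot be told apart.

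NRF2 is held in the cytoplasm and marked for degradation by KEAP1, an adaptor of a cullin 3 ubiquitin ligase. Oxidants and electrophiles modify KEAP1, after which NRF2 enters the nucleus, pairs with small MAF proteins and binds antioxidant response elements. Its targets make glutathione, reduce thioredoxin and quinones, and degrade heme. Superoxide dismutases turn superoxide into hydrogen peroxide in the cytosol (SOD1), the mitochondrial matrix (SOD2) and the extracellular space (SOD3), and catalase breaks hydrogen peroxide down in peroxisomes. NRF2 is controlled largely through the stability of its protein, which RNA counts do not show.

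The genes did not move together. In Dnm2 wt/K562E soleus, the quinone reductase gene Nqo1 and the mitochondrial dismutase gene Sod2 were lower and the extracellular dismutase gene Sod3 was higher. These 3 passed both thresholds of the study, an adjusted p under 0.05 together with a log2 ratio of the genotypes (log2 fold change) of 0.58 or more in size. Hmox1, Gclm, Sod1 and Cat were higher and Txnrd1 was lower at an adjusted p under 0.05 with smaller changes, whereas Nfe2l2 itself and Gclc did not pass. Thus 1 of 10 genes (10%) was called higher and 2 (20%) lower with both thresholds, where 12.9% and 7.85% of all tested genes were. Without the fold change threshold, 5 were higher and 3 lower, beside 22.2% and 21.7% of all tested genes. The genotypes did not overlap for 6 of the 10 genes (60%), against 41.2% of all tested genes. The median log2 fold change of the 10 genes was 0.18, that of all tested genes 0.01. Counts per mouse and gene lay between 298 and 12648.

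**Figure D1:**
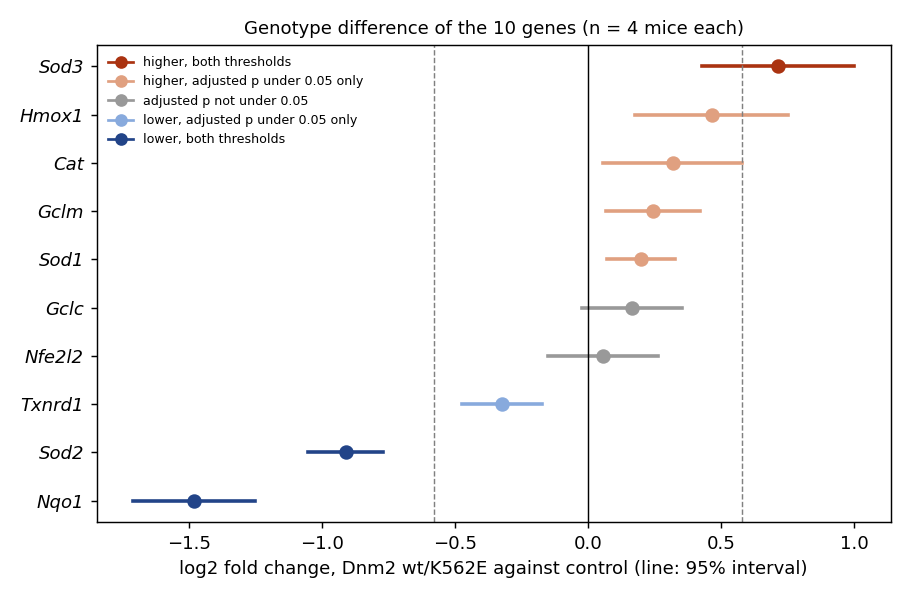
Log2 fold change of each of the 10 genes between 4 Dnm2 wt/K562E and 4 control mice (points) with its 95% interval (lines); dashed lines mark 0.58 in either direction. Nqo1 (-1.48) and Sod2 (-0.91) lie far to the left, Sod3 (0.71) lies to the right, and the interval of Nfe2l2 spans 0.

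Depth ran from 33407430 to 48832814 counts per mouse. Normalization by TMM, which scales each library by the genes that differ little between libraries, gave the 4 controls factors of 0.915 to 0.959 and the 4 mutants factors of 1.037 to 1.103, so it shifts the genotypes against each other. With library size alone all genes had a median log2 fold change of 0.22 instead of 0.01, and 2865 genes were called higher and 564 lower instead of 1806 and 1099. Levels are given as normalized CPM, the counts scaled to a common library total after TMM. Total Dnm2 from both alleles was 66.3 ± 4.74 CPM in controls and 73.4 ± 2.43 CPM in mutants (SD, n = 4 each, adjusted p = 0.0909, edgeR quasi-likelihood test). Muscle fibre markers were the most abundant of the marker lists, and 5 of 6 were lower (summed CPM 59240 to 66290 in controls and 40230 to 44950 in mutants). All 7 macrophage and all 6 fibroblast markers were higher, all 6 endothelial, 5 smooth muscle and 5 erythroid markers were lower, none of 4 adipocyte markers passed, and Mbp alone of 4 Schwann cell markers was lower. None of 4 neutrophil markers passed the filter, and Ly6g was at 0 in every mouse.

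Antioxidant response elements share the core TGACNNNGC. RefSeq promoter windows (GRCm38.p6, 250 bases before to 50 after a start site) matched 7 of the 10 genes, in 9 windows, and were searched for this core on both strands, with positions counted from the start site. Hmox1, Gclc and Sod3 had no entry. The core occurred in 4 of the 9 windows, 1 each of Nfe2l2, Gclm, Txnrd1 and Sod1, and in 12.4% of all 32851 windows. The stretches around each match are shown because they set these genes beside Nqo1 and Sod2, the most reduced ones. Capitals mark the core, read 5′ to 3′ on the gene's strand, so that a core on the other strand appears as its reverse complement.
Nfe2l2 (chr2:75704865-75704913, minus strand, core from -240): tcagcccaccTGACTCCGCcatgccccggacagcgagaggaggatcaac
Gclm (chr3:122245393-122245461, plus strand, core on the other strand from -134): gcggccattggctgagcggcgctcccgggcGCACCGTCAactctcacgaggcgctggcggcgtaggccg
Txnrd1 (chr10:82859084-82859152, plus strand, core on the other strand from -92): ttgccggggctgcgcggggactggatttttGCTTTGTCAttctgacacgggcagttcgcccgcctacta
Sod1 (chr16:90220676-90220744, plus strand, core on the other strand from -56): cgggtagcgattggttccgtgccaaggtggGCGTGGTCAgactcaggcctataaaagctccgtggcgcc
The windows of Nqo1, Sod2 and Cat and the other 2 windows of Txnrd1 held no core, and no window of these genes held the AP-1 motif TGANTCA, which 7.81% of all windows hold. The 250 bases before the start sites of Nqo1 and Sod2 are printed in full, as the promoters of the genes called lower. The Sod2 stretch lies inside the gene model used here, which begins upstream of it at 13006846.
Nqo1 (chr8:107403206-107403455, minus strand): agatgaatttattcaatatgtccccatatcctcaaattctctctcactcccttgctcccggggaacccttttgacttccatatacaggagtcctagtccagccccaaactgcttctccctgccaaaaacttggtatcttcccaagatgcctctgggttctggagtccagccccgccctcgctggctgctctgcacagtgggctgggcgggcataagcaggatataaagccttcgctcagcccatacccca
Sod2 (chr17:13007589-13007838, plus strand): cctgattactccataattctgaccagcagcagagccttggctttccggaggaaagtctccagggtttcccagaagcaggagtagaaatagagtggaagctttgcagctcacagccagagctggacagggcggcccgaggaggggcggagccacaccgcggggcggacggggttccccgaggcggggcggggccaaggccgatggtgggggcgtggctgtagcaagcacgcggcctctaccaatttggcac
Elements further away were not searched, so a window without a core does not show that its gene lacks one. The 4 genes with a core did not share a direction, with Gclm and Sod1 higher, Txnrd1 lower and Nfe2l2 not past the threshold.

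Nfe2l2 (ENSMUSG00000015839, chromosome 2 of GRCm38, 75675513 to 75704641, minus strand) stood at 61.8, 58.4, 54.0 and 64.7 CPM in controls 1 to 4 and at 68.4, 57.5, 53.7 and 69.0 CPM in Dnm2 wt/K562E mice 1 to 4. The mutant values span the control range at both ends. Its log2 fold change was 0.06 (SE 0.09, adjusted p = 0.647 by edgeR's quasi-likelihood test, Benjamini-Hochberg adjusted over all tested genes), and its 95% interval ran from -0.15 to 0.26. Scaled by library size its log2 fold change was 0.27 (adjusted p = 0.0427, same test), where the median of all genes was 0.22. Keap1, the repressor of NRF2, was 63.9 ± 2.31 CPM in controls and 55.3 ± 2.03 CPM in mutants (SD, n = 4 each), and passed with a log2 difference of -0.21 (adjusted p = 0.0129, same test). The call of Keap1 depended on the scaling, as it did not pass with library size alone (log2 difference 0.00, adjusted p = 0.955 by the edgeR test). Under either scaling Keap1 lay below the median of all genes, which was 0.01 with TMM and 0.22 with library size. The log2 ratio of Nfe2l2 to Keap1 within a mouse differed by 0.26 ± 0.14 (SE), with overlapping genotypes (exact two-sided permutation test, p = 0.143, adjusted over 8 ratios 0.163). By the root mean square difference of log2 CPM relative to controls over the 8 mice, the tested genes most like Nfe2l2 were Prpf6 (0.06), Tapbp (0.07) and Scoc (0.07).

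**Figure D2:**
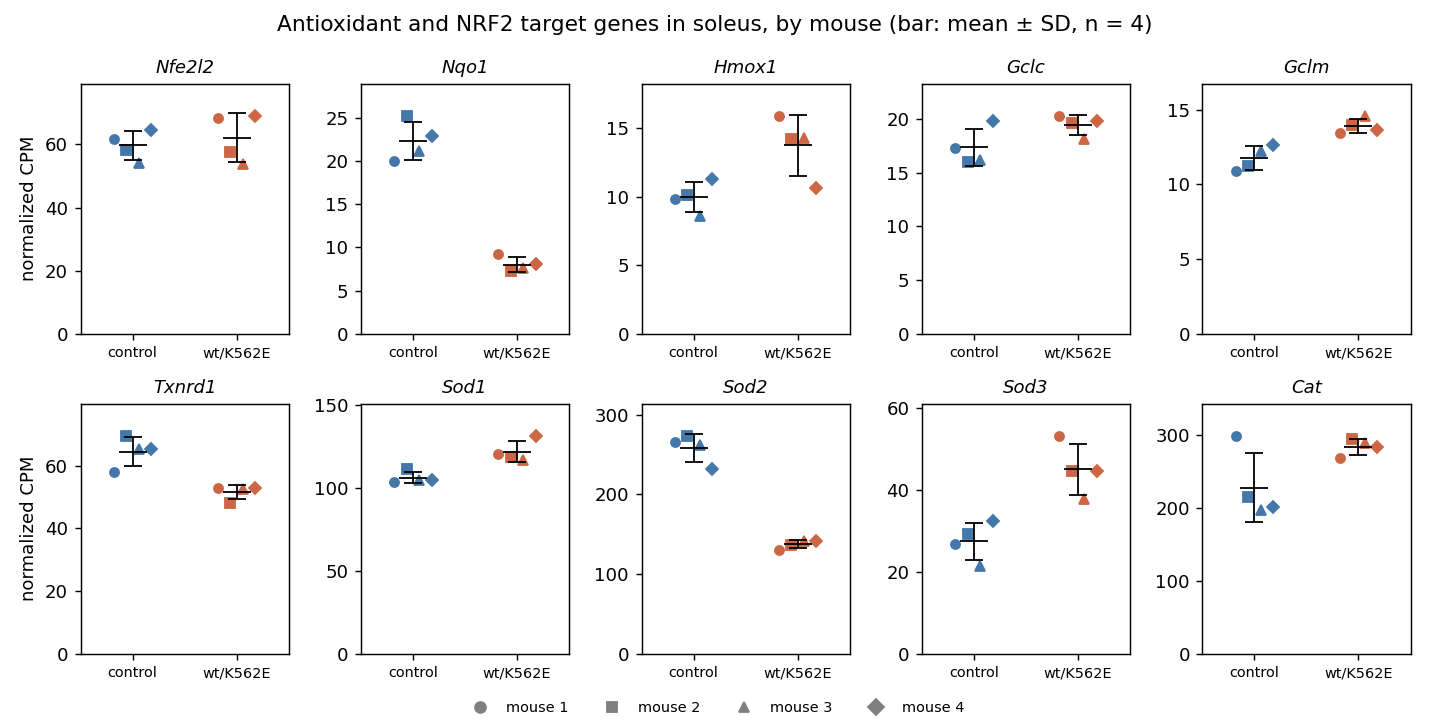
Normalized CPM of each of the 10 genes in every mouse (points, with a symbol per mouse number), with mean and SD (bars, n = 4); the vertical axes start at 0. The genotypes are apart for Nqo1, Gclm, Txnrd1, Sod1, Sod2 and Sod3, whereas control 1 lies above the mutants for Cat and Dnm2 wt/K562E mouse 4 among the controls for Hmox1.

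The largest change among the 10 genes was that of Nqo1 (ENSMUSG00000003849, chromosome 8, 107388225 to 107403206, minus strand), whose enzyme NAD(P)H quinone dehydrogenase reduces quinones without forming semiquinone radicals. It was at 20.1, 25.2, 21.2 and 22.9 CPM in controls 1 to 4 and at 9.21, 7.23, 7.56 and 8.05 CPM in Dnm2 wt/K562E mice 1 to 4. Every mutant value lay below every control value, and the lowest control exceeded the highest mutant by far more than the SD of either group (2.26 and 0.865). Its log2 fold change was -1.48 (SE 0.10, adjusted p = 2.37e-06, same test), or 0.358 times the control level, and it ran from -1.55 to -1.27 over the 17 alternatives tried. None of its 31-base stretches occurs in transcripts of other genes. The 3 tested genes whose values across the 8 mice were most like those of Nqo1 were Bdh1, Oxct1 and Perm1, with root mean square differences of 0.08, 0.11 and 0.12 on the log2 scale and log2 fold changes of -1.40, -1.40 and -1.53.

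Hmox1 (ENSMUSG00000005413, chromosome 8, 75093621 to 75100589, plus strand) encodes the inducible heme oxygenase, which opens heme to biliverdin, iron and carbon monoxide. It rose from 9.86, 10.2, 8.62 and 11.3 CPM in the controls to 15.9, 14.2, 14.3 and 10.7 CPM in the mutants. Mutant mouse 4 fell inside the control range and the other mutants above it. Its log2 fold change was 0.47 (SE 0.13, adjusted p = 0.0139, same test) and stayed between 0.39 and 0.57 when any mouse was left out. By library size it was 0.68, so that Hmox1 also passed the fold change threshold. All 7 macrophage markers were higher as well, with a median log2 difference of 1.199 and a summed level of 72.8 to 135.5 CPM in controls and 179.3 to 295.6 CPM in mutants. Relative to the mean log2 CPM of those markers, Hmox1 was lower in mutants by 0.99 ± 0.17 (SE, n = 4 each) with the genotypes apart (exact two-sided permutation test, p = 0.0286, the smallest that 4 against 4 mice allow, adjusted over 8 ratios 0.0457). Hmox1 thus rose less than the macrophage markers, and the part of these cells in its rise was not tested.

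Glutathione synthesis starts with glutamate cysteine ligase, made of a catalytic subunit (Gclc) and a modifier subunit (Gclm). Gclm (ENSMUSG00000028124, chromosome 3, 122245557 to 122270732, plus strand) had 10.9, 11.3, 12.2 and 12.7 CPM in controls and 13.4, 13.99, 14.6 and 13.7 CPM in mutants, with every mutant above every control. Its log2 fold change of 0.24 (SE 0.08, adjusted p = 0.0305, same test) was below the fold change threshold. The call of Gclm was lost without control 1 (log2 fold change 0.20, adjusted p = 0.0777), without control 2 (0.22, adjusted p = 0.084) and without mutant 2 (0.24, adjusted p = 0.0632) or mutant 3 (0.22, adjusted p = 0.085, all same test). Exons of Gclm overlap the gene model Gm17494 on the other strand over 296 bases and Gm6061 on the same strand over 244 bases, neither of them in the count files, and 6.83% of its 31-base stretches occur in other genes. Gclc (ENSMUSG00000032350, chromosome 9, 77754535 to 77794485, plus strand) had 17.4, 16.04, 16.2 and 19.9 CPM in controls and 20.3, 19.7, 18.2 and 19.8 CPM in mutants. Control 4 lay among the mutants, and the log2 fold change of Gclc was 0.17 (95% interval -0.02 to 0.35, adjusted p = 0.139, same test). It passed the adjusted p without control 4 (0.23, adjusted p = 0.0401) and with library size alone (0.38, adjusted p = 0.00824, both same test). The log2 ratio of Gclm to Gclc differed between genotypes by 0.08 ± 0.09 (SE, n = 4 each), with the genotypes mixed (p = 0.429 in an exact two-sided permutation test, the same after adjustment over 8 ratios).

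Txnrd1 (ENSMUSG00000020250, chromosome 10, 82833951 to 82897712, plus strand) encodes the cytosolic thioredoxin reductase, a selenoprotein that keeps thioredoxin reduced. It fell from 58.0, 69.4, 65.4 and 65.3 CPM in controls to 52.8, 48.2, 52.5 and 52.9 CPM in mutants, without overlap. Its log2 fold change was -0.32 (SE 0.07, adjusted p = 0.00308, same test), a smaller fall than those of Nqo1 and Sod2. Scaled by library size it was -0.11 (adjusted p = 0.196, same test), where the median of all genes was 0.22. Txnrd2, the gene for the mitochondrial reductase, also fell, from 12.04 ± 1.61 to 7.89 ± 1.55 CPM (SD, n = 4 each, log2 fold change -0.61, adjusted p = 0.00654, same test), though by library size it did not pass (-0.40, adjusted p = 0.056, same test). The ratio of Txnrd1 to Txnrd2 differed by 0.30 ± 0.16 on the log2 scale (SE), with overlapping genotypes (exact two-sided permutation test, p = 0.114, adjusted over 8 ratios 0.152).

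The 3 superoxide dismutase genes, whose products act in different compartments, did not change alike. Sod1 (ENSMUSG00000022982, chromosome 16, 90220754 to 90226329, plus strand), for the cytosolic copper-zinc enzyme, rose a little, from 103.7, 111.1, 104.7 and 104.5 CPM in controls to 120.4, 118.6, 116.5 and 130.9 CPM in mutants. The groups did not overlap, and the log2 fold change was 0.20 (SE 0.06, adjusted p = 0.0167, same test). Of its 31-base stretches, 5.42% occur in pseudogene models that are not in the count files.

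Sod2 (ENSMUSG00000006818, chromosome 17, 13006846 to 13040063, plus strand), for the manganese enzyme of the mitochondrial matrix, had the highest CPM of the 3 dismutase genes in controls. It stood at 265.2, 272.6, 262.4 and 232.3 CPM in controls and at 130.1, 136.8, 141.3 and 140.9 CPM in mutants. The mutants were within 11.2 CPM of each other and all far below the lowest control. The log2 fold change was -0.91 (SE 0.06, adjusted p = 2.37e-06, same test), or 0.532 times the control level, and it ran from -0.97 to -0.70 over the 17 alternatives. Other genes share 26.7% of its 31-base stretches, so that some of its reads could belong elsewhere. The 6 mitochondrial genes Cs, Ndufs1, Sdhb, Uqcrc2, Cox4i1 and Atp5a1 were all lower too, at log2 fold changes of -0.92 to -0.66 (median -0.83). Relative to the mean log2 CPM of these genes, Sod2 was lower in mutants by 0.09 ± 0.03 on the log2 scale (SE, n = 4 each), from -1.71 ± 0.06 to -1.80 ± 0.03 (SD), with the genotypes apart (exact two-sided permutation test, p = 0.0286, adjusted over 8 ratios 0.0457). Among all tested genes, Acat1 (root mean square difference 0.03), Idh3b (0.05) and Idh3a (0.05) were most like Sod2 over the 8 mice. The log2 ratio of Sod2 to Sod1 fell from 1.28 ± 0.09 to 0.18 ± 0.08 (SD, n = 4 each), a difference of -1.11 ± 0.06 (SE) with the genotypes apart (exact two-sided permutation test, p = 0.0286, adjusted 0.0457).

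Sod3 (ENSMUSG00000072941, chromosome 5, 52363791 to 52371418, plus strand), for the secreted dismutase that binds the matrix, rose from 26.8, 29.1, 21.5 and 32.2 CPM in controls to 53.0, 44.6, 37.7 and 44.5 CPM in mutants. Each mutant exceeded each control, and the controls spread more, relative to their mean, than for Sod1 and Sod2 (SD 16.6% of the mean). The log2 fold change was 0.71 (SE 0.13, adjusted p = 0.00123, same test), and it ran from 0.61 to 0.79 when any mouse was left out. The 6 fibroblast markers rose from a summed 1880 to 2832 CPM in controls to 4013 to 5178 CPM in mutants, at a median log2 difference of 1.06, while the 5 smooth muscle markers fell, with a median of -0.67 and summed levels of 514.9 to 660.4 CPM in controls and 347.8 to 379.2 CPM in mutants. The part of these cells in the rise of Sod3 was not tested. The log2 ratio of Sod3 to Sod1 rose from -1.97 ± 0.24 to -1.45 ± 0.20 (SD, n = 4 each), with the genotypes apart (exact two-sided permutation test, p = 0.0286, adjusted over 8 ratios 0.0457). The tested genes nearest to Sod3 were Gm42416 (0.08), Pomk (0.09) and Cybc1 (0.10 root mean square difference over 8 mice).

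Cat (ENSMUSG00000027187, chromosome 2, 103453849 to 103485160, minus strand), for catalase, had 298.1, 215.0, 197.2 and 200.8 CPM in controls and 268.2, 294.0, 289.7 and 283.5 CPM in mutants. Control 1 was higher than all mutants and the other controls were lower than all mutants. The log2 fold change was 0.32 (SE 0.12, adjusted p = 0.0497, same test), at the edge of the threshold. Without control 1 it was 0.47 (adjusted p = 1.70e-04, same test). When any other mouse was left out it ran from 0.25 to 0.34 and did not pass (adjusted p = 0.118 without control 2, 0.131 without control 3, 0.117 without control 4, and 0.0666, 0.103, 0.0987 and 0.0872 without mutants 1 to 4, same test). Genes of peroxisomes, where catalase resides, did not move with Cat: of 10, none was higher and 3 (Pex19, Acaa1a and Abcd3) were lower, at a median of -0.09 on the log2 scale, whereas scaling by library size gave 3 higher and 1 lower. Relative to their mean log2 CPM, Cat was higher in mutants by 0.44 ± 0.09 (SE, n = 4 each), and control 1, though apart from the other controls, lay below every mutant (exact two-sided permutation test, p = 0.0286, adjusted over 8 ratios 0.0457). The 5 markers of erythroid cells, which also hold catalase, fell from a summed 524.5 to 894.4 CPM in controls to 247.7 to 516.5 CPM in mutants, and their part in the values of Cat was not tested.

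**Figure D3:**
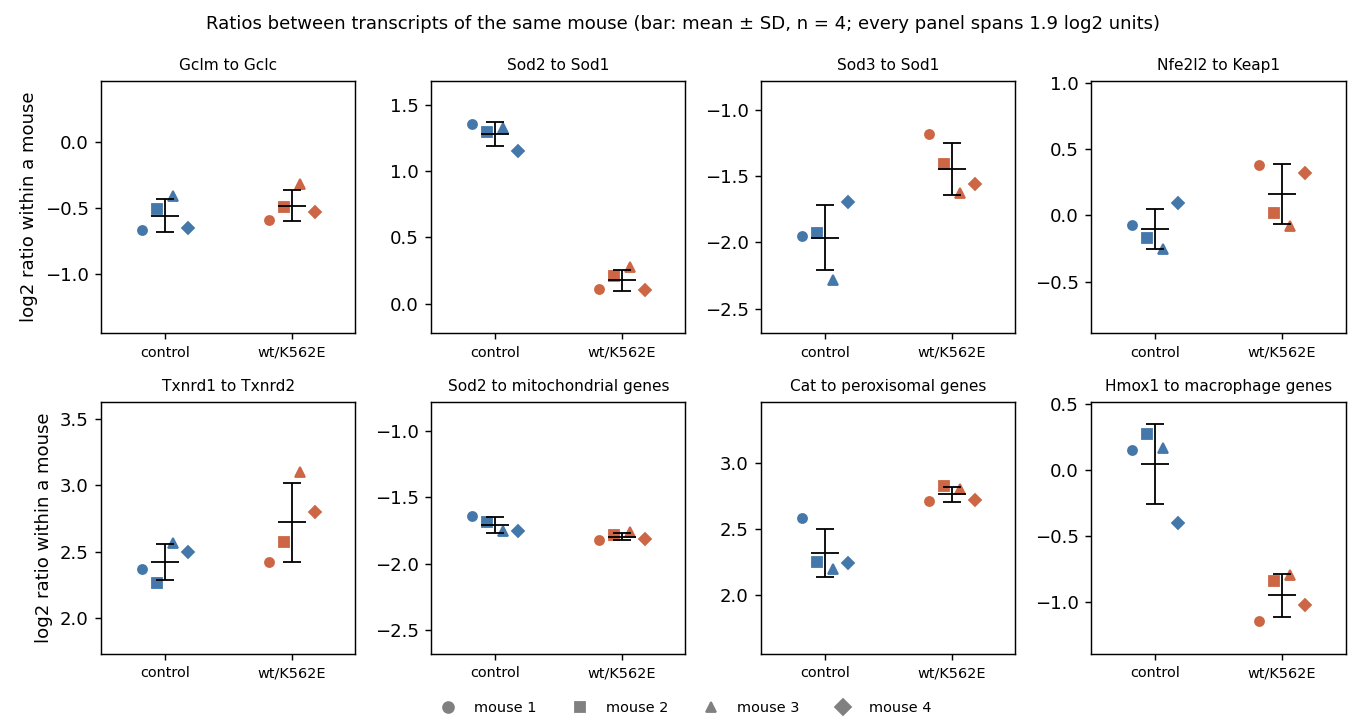
Log2 ratio of 2 transcripts, or of a transcript to the mean of a gene list, within each mouse (points), with mean and SD (bars, n = 4); scaling of libraries cancels in these values. Sod2 falls against Sod1 by 1.11 and Hmox1 falls against the macrophage markers by 0.99. The genotypes differ less in Sod2 against the mitochondrial genes (lower by 0.09, genotypes apart) and in Gclm against Gclc (higher by 0.08, genotypes overlapping).

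Levels of different genes can be compared only per length, and the order depends on the length used. Divided by the length of the principal transcript, the control levels in RPKM (normalized CPM per kilobase) were 165.4 ± 5.33 for Sod1, 87.2 ± 18.2 for Cat, 44.0 ± 3.03 for Sod2, 28.1 ± 2.06 for Txnrd1, 24.1 ± 1.86 for Nfe2l2, 14.4 ± 1.45 for Nqo1, 11.7 ± 0.814 for Gclm, 7.33 ± 1.217 for Sod3, 6.37 ± 0.703 for Hmox1 and 5.08 ± 0.516 for Gclc (SD, n = 4 each). In this order, Txnrd1 and Nfe2l2 overlapped between mice, as did Sod3 with Hmox1 and Hmox1 with Gclc, whereas all other neighbours were apart. Gclm had 2 principal transcripts of equal rank and Txnrd1 had 3, and the shortest of each was used. In mutants Sod1 (189.7 ± 9.97) and Cat (108.6 ± 4.32) still led. Sod2 (23.4 ± 0.883) then overlapped with Nfe2l2 (25.1 ± 3.12) and Txnrd1 (22.5 ± 0.991), and Nqo1 (5.16 ± 0.557) had become the lowest of the 10 genes, overlapping with Gclc (5.69 ± 0.270, all SD, n = 4). With the merged exons of all transcripts as length, Cat led in controls (87.2 RPKM), and Sod1 (26.7 RPKM) overlapped with Sod2 (25.8 RPKM), because the annotated exons of Sod1 add up to 3970 bases against 641 bases in its principal transcript.

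The wider redox network was described by 9 lists with 110 different genes, of which 109 were tested. The lists include the 6 mitochondrial and 10 peroxisomal genes set beside Sod2 and Cat above. Of the 109 genes, 32 were higher and 35 lower at an adjusted p under 0.05, beside 22.2% and 21.7% of all tested genes. Their median log2 fold change was 0.02. The 35 lower genes include 6 mitochondrial and 3 peroxisomal ones, and the 32 higher genes include none of either. Library size scaling, which moved the median of all genes to 0.22, gave 47 higher and 20 lower among the 109. The 20 lower ones then included 6 mitochondrial genes and 1 peroxisomal gene, and the 47 higher ones 3 peroxisomal genes. Of the 109 genes, 15 then had the opposite sign, each with an adjusted p above 0.05.

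Among 11 NRF2 regulators, 2 were higher, 4 lower and 5 did not pass, with a median log2 fold change of 0.07. Rbx1 (-0.44, adjusted p = 9.81e-05) and Cul3 (-0.41, adjusted p = 2.08e-04), both parts of the ubiquitin ligase that KEAP1 serves, were lower. Sqstm1, for the autophagy receptor p62 that binds KEAP1, was higher (0.29, adjusted p = 0.0021, all edgeR quasi-likelihood test). Nfe2l3, for a factor related to NRF2, had 2, 3, 6 and 0 counts in controls and 37, 64, 92 and 27 counts in mutants. It passed the filter on low counts only through the mutants, and with at least 10 counts required in every mouse 1 regulator was higher. By library size this list had 5 higher and 2 lower genes. Of 25 other NRF2 targets, 8 were higher, 5 lower and 12 did not pass (median 0.08). The sulfiredoxin gene Srxn1 (0.56), the epoxide hydrolase gene Ephx1 (0.56) and Ugdh (0.64), for UDP-glucose dehydrogenase, were higher, and the exporter gene Abcc4 (-0.57) was lower. By library size, 11 were higher and 1 was lower.

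The 20 glutathione enzyme genes split, with 7 higher, 8 lower and 5 not past the threshold (median log2 fold change 0.00). The 4 with the smallest p-value were all lower: Oplah (-1.45), for the oxoprolinase that returns glutamate to glutathione synthesis, Mgst3 (-1.08), Gstk1 (-1.20) and Mgst1 (-1.57), for glutathione transferases of membranes, mitochondria or peroxisomes. The 17 thioredoxin and peroxiredoxin genes had 4 higher, 7 lower and 6 not past the threshold (median 0.00), led by Prdx3 (-0.39) and Prdx5 (-0.38), for mitochondrial peroxiredoxins, Txn2 (-0.37), for mitochondrial thioredoxin, and Msra (-0.42), for a methionine sulfoxide reductase. By library size, 7 were higher and 3 lower. Prdx3 (-0.18), Prdx5 (-0.17) and Txn2 (-0.16) then still passed with smaller values, and Msra did not (-0.20, adjusted p = 0.126, edgeR quasi-likelihood test).

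Of 9 tested genes of oxidant-producing enzymes, 7 were higher and 1 lower (median log2 fold change 0.99), while Duox2 was too low to be tested. Nox4, for an NADPH oxidase that makes hydrogen peroxide, rose from 6.24 ± 1.07 to 28.4 ± 3.42 CPM (SD, n = 4 each), a log2 difference of 2.19 (adjusted p = 1.05e-06, same test). Cyba (0.95) and Ncf1 (1.68), subunits of the phagocyte oxidase complex, were higher, beside the higher macrophage markers given for Hmox1, and their part was not tested. Xdh, for xanthine dehydrogenase, was lower (-0.60, adjusted p = 4.95e-04, same test), and so were the 6 endothelial markers (median -0.40, summed 961.9 to 1026 CPM in controls and 691.8 to 774.3 CPM in mutants), whose part in this was not tested. Among 11 genes of heme and iron handling, 4 were higher, 1 lower and 6 did not pass (median 0.23), and the transferrin receptor gene Tfrc (0.74), Slc11a2 (0.30), Blvra (0.38), for the biliverdin reductase that acts after heme oxygenase, and the ferritin light chain gene Ftl1 (0.31) were higher. In the list of copper supply and metallothioneins, 3 of 7 genes were higher and 1 lower (median 0.09). The metal-binding metallothionein genes Mt2 (1.65, adjusted p = 2.20e-05) and Mt1 (0.84, adjusted p = 0.0024) and the copper chaperone gene Atox1 (0.45) were higher, and the copper importer gene Slc31a1 was lower (-0.31, adjusted p = 0.00333, all same test). By library size, no gene of the heme and iron list (6 higher) or of the copper list (3 higher) was lower.

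**Figure D4:**
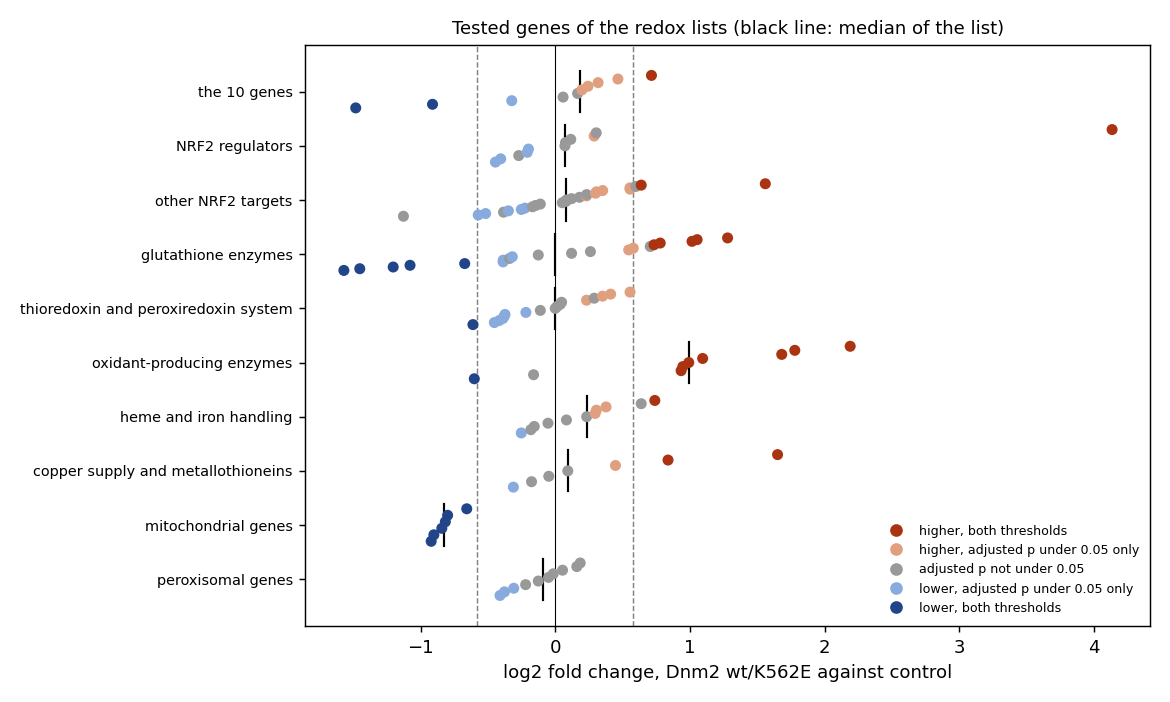
Log2 fold change of each tested gene in the 10 genes and in the 9 lists, the mitochondrial and peroxisomal genes among them (points, coloured by the thresholds passed). Black lines give the median of each list, and dashed lines mark 0.58 in either direction. Points lie on both sides of 0 in most lists, all 6 mitochondrial genes lie to the left, and 7 of 9 oxidant-producing enzymes lie to the right.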

How the data were processed

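Per the labels and the study's methods, reads of 8 mice were trimmed with Trimmomatic 0.33, aligned with STAR 2.5.1b to GRCm38.p5 with Ensembl gene models and counted with featureCounts. The authors deposited raw counts per gene and mouse. Reads overlapping several genes counted for each, and multi-mapping reads counted at the primary alignment only, so genes with near-identical copies are less certain. The strand setting is not given in the sources used here, and the methods and labels name different library kits. Whether littermates were used in this experiment is not stated.

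From these counts, filterByExpr (minimum count 10, minimum total 15), TMM factors and the quasi-likelihood F-test of edgeR 4.0.16 in R 4.3.3 were computed over all 14001 tested genes, with Benjamini-Hochberg adjustment over all of them. Calls required adjusted p values under 0.05 and, where stated, log2 fold changes of 0.58 in size. Standard errors are those implied by the F statistic. Log2 CPM used a prior count of 2. Ratios were compared by exact two-sided permutation tests (scipy 1.17.1). Positions, exon lengths and shared 31-base stretches came from GENCODE M21 on GRCm38, which holds 22570 of the 22880 identifiers. Alternatives were the edgeR exact test (the study's own), DESeq2 1.42.0, other scalings and filters, replicate blocks and leaving out each mouse. On simulated data for this comparison (14013 genes, 200 of them changed by 1.5 on the log2 scale), 100% of the changed genes were recovered with 2 false calls. The changed genes were drawn from those with higher counts, and all genes were given a common spread between mice. Smaller changes, such as most of those of the 10 genes, were not simulated.

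The genes, lists and tests were chosen with earlier results of these data known. Named are the 10 genes, Dnm2, the genes of the ratios, up to 4 genes of each list with the smallest p-value, the 3 genes nearest to Nfe2l2 and to each called gene, and marker genes by list. The genes in the last section were picked with their values in view.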

Additional observations from a re-analysis of the deposited data

Results flagged for a closer look

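In 38 groups of 4 values (10 genes, Dnm2 and 8 ratios in each genotype), 4 single values lay far from the others of their group relative to the range of the group, by Dixon's criterion at the 95% level. Chance gives such a value in about 1 of 20 groups. Txnrd1 in Dnm2 wt/K562E mouse 2 was at 48.2 CPM, below the other mutants, and on the far side from the controls. Sod1 in control 2 was at 111 CPM, above the other controls and below every mutant. Dnm2 in control 3 was at 59.2 CPM, below the other controls. The log2 ratio of Cat to the peroxisomal genes was 2.58 in control 1, between the other controls and the mutants.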

How the results depend on the processing

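Over 17 alternatives, all 10 genes kept the direction of their log2 fold change, and Nqo1, Sod2, Sod3 and Hmox1 kept an adjusted p under 0.05 in each. Of the others, Sod1 and Txnrd1 kept it in 16, Gclm in 11 and Cat in 9. Scaling by library size alone moved the calls to 2865 higher and 564 lower genes over all. It moved them to 2 of the 10 genes called higher (Hmox1 joined Sod3). In the 9 lists, with the mitochondrial and peroxisomal genes counted, it left 20 lower genes. It gave 0.27 for Nfe2l2, 0.38 for Gclc and -0.11 for Txnrd1. Without a fold change threshold 3103 genes were higher and 3036 lower, and 5 of the 10 genes higher. The mouse numbers of the titles, used as a replicate block, did not pair the mice (correlation of same-numbered mice from -0.213 to 0.00949, by description numbers from -0.167 to 0.178). With this block, the log2 fold changes and adjusted p were 0.25 and 0.0678 for Gclm, 0.20 and 0.0535 for Sod1, and 0.34 and 0.0623 for Cat, and with the description numbers 0.25 and 0.0668 for Gclm (edgeR quasi-likelihood test). Leaving out each mouse gave ranges of 0.20 to 0.27 for Gclm, 0.25 to 0.47 for Cat and 0.13 to 0.23 for Gclc. Within ratios a block leaves the mean difference as it is, and leaving out a mouse, a prior count of 0.5 or a block moved none of the 8 ratios by more than 1 SD, though with a mouse left out the permutation test is too small to pass 0.05. The causes were not tested. With 4 mice per genotype, 95% intervals of the log2 fold changes that did not pass reached 0.26 for Nfe2l2 and 0.35 for Gclc.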

Other observations

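Further genes of the redox lists, picked with their values in view, differed within families. Of 5 glutathione peroxidase genes, the cytosolic Gpx1 rose from 52.4 ± 7.47 to 127.1 ± 10.7 CPM (SD, n = 4 each), by 1.28 on the log2 scale (adjusted p = 4.56e-06, edgeR quasi-likelihood test). Gpx8 (1.015), Gpx4 (0.55), for the enzyme that reduces lipid peroxides, and Gpx7 (0.58) were higher too, whereas secreted Gpx3 had a log2 fold change of -0.13 (95% interval -0.50 to 0.25, adjusted p = 0.578). The glutathione synthase gene Gss rose by 0.78 on the log2 scale, more than Gclm (0.24), which acts before it.

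Of 4 glutaredoxin genes, Glrx2 (-0.32, adjusted p = 0.00478) and Glrx5 (-0.39, adjusted p = 0.00612), for mitochondrial forms, and Glrx3 (-0.39, adjusted p = 1.93e-04) were lower, and Glrx did not pass (0.26, adjusted p = 0.121, all same test). The cytosolic thioredoxin gene Txn1 was higher (0.23, adjusted p = 0.0117, same test). The thioredoxin-binding gene Txnip was lower (-0.45, adjusted p = 0.0426, same test) with overlapping genotypes. Of the pentose phosphate pathway genes, Pgd (0.35) and Taldo1 (0.30) were higher, and G6pdx (0.18, adjusted p = 0.447) and Tkt (0.08, adjusted p = 0.726, same test) did not pass. By library size Glrx2 (-0.105, adjusted p = 0.302), Glrx5 (-0.175, adjusted p = 0.0961) and Txnip (-0.235, adjusted p = 0.263) did not pass, whereas Glrx3 did (-0.175, adjusted p = 0.0216, all same test).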
